A study of Homo sapiens with 49 samples.

Results

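Ethinyl estradiol (EE) at 3 pM was compared with the ethanol vehicle in Ishikawa cells, an established line from a human endometrial adenocarcinoma. The comparison took 12 of the 49 arrays of the series, chosen by their titles: the 6 arrays of cells treated with 3 pM EE and the 6 arrays of cells given vehicle alone. Both groups stood in medium with 5% CSS and 0.1% ethanol for 72 h, with part of the medium renewed every day. The remaining 37 arrays held cells given 0.1, 0.3, 1, 10, 100 or 1000 pM EE under the same conditions. Whether the replicates came from separate cultures is not stated in the labels, and p-values therefore rest on the spread among these samples alone, part of which may be technical. The model is 1 tumour line grown without the stroma, vessels and immune cells of the uterus.

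EE is the synthetic estrogen of oral contraceptives. Bound estrogen receptor acts as a transcription factor that sits on estrogen response elements, or is tethered through other factors such as AP-1, and recruits coactivators to its target genes. In the endometrial epithelium estrogen is known for inducing the progesterone receptor and for driving growth before ovulation. Ishikawa cells are known for keeping an active estrogen receptor and for an alkaline phosphatase activity that estrogens raise.

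The arrays of 3 pM replicate 6 and vehicle replicate 5 stood apart in their control probe sets, which read the 3′ and the 5′ end of an abundant RNA. The 3′ control probe set of beta-actin exceeded the 5′ one by 2.75 (log2) on 3 pM replicate 6 and by 4.62 on vehicle replicate 5, against 0.85 to 2.06 on the other 10 arrays. GAPDH gave 0.50 on 3 pM replicate 6 and 1.79 on vehicle replicate 5, against −0.15 to 0.19 on the others. The SD of all genes from their group mean was 0.347 and 0.561 on these 2 arrays, and 0.127 to 0.206 on the rest. Between the groups the beta-actin difference averaged 1.47 ± 0.66 at 3 pM EE and 1.91 ± 1.40 in vehicle (SD, n = 6 each, exact permutation p = 0.589), and the GAPDH difference averaged −0.01 ± 0.25 at 3 pM EE and 0.28 ± 0.75 in vehicle (SD, n = 6 each, exact permutation p = 0.487). Results are given with and without these 2 arrays, called the 2 arrays with 3′ bias from here on.

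After 72 h at 3 pM EE, 17 genes were higher than in vehicle and 0 were lower (limma, adjusted p under 0.05), which is 0.153% of the 11075 genes tested. OLFM1 and PGR, the progesterone receptor gene, had the largest fitted log2 differences (1.77 and 1.61). ALPG, DHRS3 and SLCO2A1 were at or below the log2 floor of 4 on every vehicle array. ANO1, THBS1, MLPH, TGFA, HES2, GREB1, DEPTOR, CAPS, RHOBTB1, CILP, SLC6A6 and EPB41L2 were 1.19-fold to 1.56-fold higher. For each of the 17 genes all 6 of the 3 pM arrays lay above the vehicle mean. The genes were chosen by the difference between these same arrays, so this describes them and is no further evidence. In bulk RNA, more cells with a transcript and more of it per cell cannot be told apart.

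The fit took the spread from all 49 arrays, and the median standard error of a log2 difference was 0.0957. At an unadjusted p under 0.05, 160 genes were higher (1.44%) and 197 were lower (1.78%). Of the 17 genes, 14 also passed an adjusted p under 0.01, and 0 genes had an adjusted p between 0.05 and 0.1. With only the 12 arrays in the fit, limma called 0 genes, and the lowest adjusted p was 0.102. In that fit 105 genes had an unadjusted p under 0.05, and all 17 genes were among them (at most 0.0124). The 17 were chosen on these same arrays, so their place among the 105 is no further evidence. Without the 2 arrays with 3′ bias 18 genes were called, 16 of them from the 17.

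**Figure D1:**
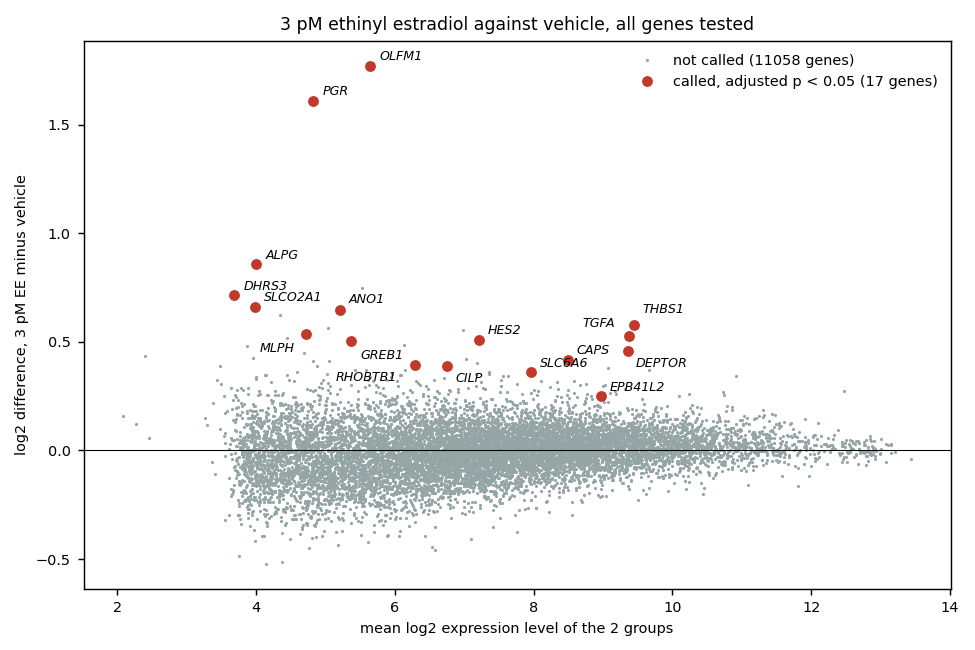
Each point is 1 of the 11075 genes: the x axis is the mean log2 level of the 3 pM EE and vehicle groups, and the y axis is the log2 difference, 3 pM EE minus vehicle. The 17 called genes (red) all lie above 0, between 0.25 for EPB41L2 and 1.77 for OLFM1. The plotted differences of ALPG, DHRS3 and SLCO2A1 are fitted values of genes at or below the floor in vehicle and do not measure their size.

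Of the 28 measured genes on a list of known estrogen targets, 5 rose (PGR, OLFM1, GREB1, MLPH and TGFA). Of the rest 0 fell and 23 did not pass the test. Over all 11075 genes tested 17 rose (0.153%). The list was drawn up with earlier results of these data known, so its count is no evidence about it. The median log2 difference of the list was 0.07, against −0.00 over all genes tested, and without the 2 arrays with 3′ bias it was 0.00, against −0.01 over all genes.

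PGR encodes the nuclear receptor for progesterone and is a classical target of estrogen in the uterus. On the 3 pM EE arrays its log2 level had a low of 5.01, a median of 5.67 and a high of 6.04, and on the vehicle arrays a low of 3.00, a median of 4.09 and a high of 4.68. The groups did not overlap, and the lowest array of each was the one with 3′ bias. The log2 level averaged 5.63 ± 0.36 at 3 pM EE and 4.02 ± 0.57 in vehicle (SD, n = 6 each), a fitted difference of 1.61 ± 0.21 (SE, limma adjusted p = 1.49e-05). It was the lowest adjusted p of the comparison. PGR exceeded the floor on 4 of the 6 vehicle arrays, so the size of the difference is uncertain and no fold is given.

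OLFM1 encodes olfactomedin 1, a secreted glycoprotein first known from brain. It ranged over 5.77, 6.67 and 6.90 (lowest, median and highest log2 level) at 3 pM EE and over 4.02, 4.54 and 5.89 in vehicle. The groups overlapped in a single pair of arrays: 3 pM replicate 6 lay just below vehicle replicate 2, and the other 5 arrays at 3 pM lay above all vehicle arrays. The means were 6.53 ± 0.44 at 3 pM EE and 4.76 ± 0.73 in vehicle (SD, n = 6 each). The difference of 1.77 ± 0.26 was the largest of the 17 (SE, limma adjusted p = 4.43e-05), and corresponds to 3.41-fold.

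GREB1, an estrogen-induced cofactor of the estrogen receptor, had log2 levels of 5.16, 5.73 and 5.83 (lowest, median and highest) at 3 pM EE and of 4.96, 5.13 and 5.33 in vehicle. The groups overlapped through 3 pM replicate 6 alone, and without the 2 arrays with 3′ bias they did not overlap. The log2 difference was 0.51 ± 0.11 (SE, limma adjusted p = 0.0264), or 1.42-fold. This was the least stable call: in 8 of the 12 fits that each left out 1 array (3 pM replicate 1, 3, 4 or 5, or vehicle replicate 1, 3, 5 or 6) it no longer passed, with an adjusted p of up to 0.159.

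TGFA encodes transforming growth factor alpha, a membrane-anchored ligand of the EGF receptor. The log2 levels were 9.45, 9.68 and 9.75 (lowest, median and highest) at 3 pM EE and 8.71, 9.22 and 9.41 in vehicle, so that the groups did not overlap. The difference was 0.53 ± 0.09 (SE, limma adjusted p = 0.000991), or 1.44-fold. Among the 12 measured genes of the EGF family, its receptors and their regulators, TGFA was the 1 that rose, and ERBB2, a receptor of the family, stood at 6.90 ± 0.39 at 3 pM EE and 7.30 ± 0.77 in vehicle (SD, n = 6 each, adjusted p = 0.910).

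MLPH encodes melanophilin, which ties RAB27A-coated vesicles to a myosin motor. The arrays gave log2 levels of 4.81, 4.94 and 5.24 (lowest, median and highest) at 3 pM EE and 3.95, 4.47 and 4.89 in vehicle. MLPH exceeded the floor on 5 of the 6 vehicle arrays. The highest vehicle array was replicate 5, and without the 2 arrays with 3′ bias the groups did not overlap. The difference was 0.54 ± 0.11 (SE, limma adjusted p = 0.00844). The call was lost without 3 pM replicate 4, without vehicle replicate 4 and without 3 pM replicate 6 (highest adjusted p 0.0873). The partner genes RAB27A and MYO5A did not pass: RAB27A averaged 7.75 at 3 pM EE and 7.68 in vehicle, and MYO5A averaged 7.15 at 3 pM EE and 7.05 in vehicle.

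Other known targets on the list were measured and did not pass. NRIP1, a corepressor that estrogen induces in many cells, averaged 7.75 ± 0.24 at 3 pM EE and 7.48 ± 0.28 in vehicle (SD, n = 6 each, limma adjusted p = 0.910). Another NRIP1 probe set averaged 6.38 ± 0.38 at 3 pM EE and 5.59 ± 0.80 in vehicle (SD, n = 6 each). Its difference of 0.79 was larger than the 0.27 of the probe set that stood for the gene. MYC, the growth-driving transcription factor, averaged 9.31 at 3 pM EE and 9.03 in vehicle, and CA12, a carbonic anhydrase, averaged 6.51 at 3 pM EE and 6.21 in vehicle, both with an adjusted p of 0.910.

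The 3 genes that emerged from the floor were ALPG, DHRS3 and SLCO2A1. For ALPG and SLCO2A1 a fold can only be bounded from below, by setting the vehicle arrays to the floor of 4. For DHRS3 no bound is given.

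ALPG encodes a germ-cell alkaline phosphatase. Its log2 level was 4.19, 4.44 and 4.74 (lowest, median and highest) at 3 pM EE and 3.18, 3.59 and 3.83 in vehicle. All 6 of the 3 pM arrays were above the floor and 0 of the vehicle arrays were, so the groups did not overlap. It was at least 1.35-fold higher at 3 pM EE (mean log2 level 4.43 ± 0.21 at 3 pM EE and 3.57 ± 0.24 in vehicle, SD, n = 6 each, limma adjusted p = 4.43e-05). ALPG is a close copy of the placental and intestinal alkaline phosphatase genes, and its probe set may not separate them. ALPP, the placental gene, averaged 2.34 at 3 pM EE and 2.31 in vehicle on its own probe set, and was below the floor on all 12 arrays.

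DHRS3 encodes a reductase that returns retinal to retinol. Its log2 level was 3.85, 4.01 and 4.35 (lowest, median and highest) at 3 pM EE and 2.99, 3.34 and 3.54 in vehicle. The groups did not overlap (limma adjusted p = 0.00195). The floor was passed on only 3 of the 6 arrays at 3 pM, so no fold is given. The other measured genes of retinoid handling did not pass, among them ALDH1A3, which makes retinoic acid, with 5.44 at 3 pM EE and 5.21 in vehicle.

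SLCO2A1 encodes the prostaglandin transporter, which takes prostaglandins up into cells. The log2 levels were 4.06, 4.21 and 4.79 (lowest, median and highest) at 3 pM EE and 3.41, 3.57 and 3.99 in vehicle. All arrays at 3 pM lay above the floor and all vehicle arrays below it, and it was at least 1.24-fold higher (limma adjusted p = 0.00195). Of the 12 measured genes of prostaglandin synthesis, transport and reception it was the 1 that rose, and PLA2G4A, the phospholipase that frees arachidonic acid, averaged 8.11 at 3 pM EE and 7.87 in vehicle (adjusted p = 0.910).

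Start sites of PGR, ALPG and DHRS3 are shown as examples of windows that hold a half-site of the estrogen response element. Of the 3 windows of PGR 2 hold one, and these 2 overlap and share the same site. Of the 3 windows of DHRS3 1 holds a half-site, and the 3 windows of OLFM1 and the 2 of MLPH hold 0. The 250 bases before 1 start of each (RefSeq, GRCh38.p14) are written 5′ to 3′ on the gene's strand, in lower case, with the estrogen response element half-site in capitals, GGTCA or its complement TGACC. PGR is at chr11:101129064-101129313 on the minus strand, ALPG at chr2:232406594-232406843 on the plus strand and DHRS3 at chr1:12596614-12596863 on the minus strand.
PGR: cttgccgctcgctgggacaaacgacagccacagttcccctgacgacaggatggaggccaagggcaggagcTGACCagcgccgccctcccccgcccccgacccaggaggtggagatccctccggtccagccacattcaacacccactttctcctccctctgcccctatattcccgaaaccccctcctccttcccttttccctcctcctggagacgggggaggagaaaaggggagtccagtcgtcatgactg
ALPG: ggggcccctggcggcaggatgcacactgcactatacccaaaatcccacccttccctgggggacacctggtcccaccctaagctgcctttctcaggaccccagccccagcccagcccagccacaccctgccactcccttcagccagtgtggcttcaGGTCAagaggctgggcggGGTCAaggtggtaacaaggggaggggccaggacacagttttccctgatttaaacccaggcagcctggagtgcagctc
DHRS3: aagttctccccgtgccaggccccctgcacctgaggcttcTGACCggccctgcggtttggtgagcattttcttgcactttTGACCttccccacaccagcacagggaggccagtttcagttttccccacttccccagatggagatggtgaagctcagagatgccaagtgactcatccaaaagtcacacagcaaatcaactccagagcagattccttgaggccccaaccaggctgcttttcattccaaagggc

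The first base of the half-site lay 180 bases before the start in PGR, 95 and 77 in ALPG, and 211 and 171 in DHRS3. Promoter windows of 300 bases, 250 before the start and 50 from it on, were on hand for 13 of the 17 genes, 27 windows in all. The half-site, searched as GGTCA on both strands, stood in 10 of these 27 windows, against 34.2% of the 13498 windows of tested genes and 37.4% of all 35116 windows. The full element, GGTCA and TGACC with any 3 bases between them, stood in 0 of the 27, and in 20 of all 35116 windows (0.057%). The AP-1 letters TGANTCA stood in 1 of the 27, a window of DHRS3, against 4.91% of the windows of tested genes. The half-site is contained in the full element, and a match is a description of the letters and not of binding.

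Matrix and signalling genes made up the next group. THBS1 encodes thrombospondin 1, a matrix glycoprotein that limits vessel growth and activates latent TGF-beta. The arrays gave log2 levels of 9.55, 9.71 and 9.97 (lowest, median and highest) at 3 pM EE and 8.55, 9.26 and 9.52 in vehicle. The groups narrowly did not overlap. The difference was 0.58 ± 0.11 (SE, limma adjusted p = 0.00777), or 1.49-fold. Of the 20 measured genes of TGF-beta signalling and matrix it was the 1 that rose, and TGFBR1, a receptor, averaged 8.66 at 3 pM EE and 8.53 in vehicle.

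CILP encodes a matrix protein of cartilage that binds TGF-beta. Its log2 level was 6.72, 6.94 and 7.29 (lowest, median and highest) at 3 pM EE and 5.99, 6.64 and 6.77 in vehicle. Its groups overlapped with and without the 2 arrays with 3′ bias. The difference was 0.39 ± 0.08 (SE, limma adjusted p = 0.0151), and it was lost without 3 pM replicate 4 (adjusted p = 0.163) and without vehicle replicate 5.

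DEPTOR encodes an inhibitor that binds the mTOR kinase. Its log2 level was 9.49, 9.60 and 9.69 (lowest, median and highest) at 3 pM EE and 8.80, 9.16 and 9.39 in vehicle. The groups did not overlap, and the SD was 0.0737 at 3 pM EE and 0.210 in vehicle. The difference was 0.46 ± 0.07 (SE, limma adjusted p = 5.07e-05), or 1.37-fold. The other 18 measured genes of the mTOR list did not pass; AKT1 averaged 5.76 at 3 pM EE and 6.02 in vehicle.

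HES2 encodes a transcriptional repressor of the hairy and enhancer-of-split family. The log2 levels were 7.34, 7.40 and 7.80 (lowest, median and highest) at 3 pM EE and 6.63, 6.87 and 7.46 in vehicle. Replicate 5 was the highest vehicle array and replicate 6 the highest at 3 pM, and without these 2 the groups did not overlap. The difference was 0.51 ± 0.11 (SE, limma adjusted p = 0.0117), and it was lost in 4 of the 12 fits that left out 1 array (vehicle replicate 3, 4 or 6, or 3 pM replicate 6; highest adjusted p 0.0967). Of the 14 measured Notch genes 1 rose, HES2, and JAG1, a Notch ligand, averaged 9.80 ± 0.07 at 3 pM EE and 9.93 ± 0.08 in vehicle (SD, n = 6 each, adjusted p = 0.910).

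Channels and carriers gave another 2 rises beside SLCO2A1. ANO1 encodes a calcium-activated chloride channel. The arrays gave log2 levels of 5.35, 5.55 and 5.66 (lowest, median and highest) at 3 pM EE and 4.38, 4.83 and 5.29 in vehicle, and the groups did not overlap. The difference was 0.65 ± 0.13 (SE, limma adjusted p = 0.00844), or 1.56-fold. Without vehicle replicate 5, its lowest array, the adjusted p was 0.0599.

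SLC6A6 encodes the taurine transporter. Its log2 level was 7.91, 8.13 and 8.35 (lowest, median and highest) at 3 pM EE and 7.64, 7.74 and 7.96 in vehicle. Only 3 pM replicate 6 lay within the vehicle range. The difference was 0.36 ± 0.07 (SE, limma adjusted p = 0.00254), or 1.28-fold. The other 18 measured amino acid and glucose carriers did not pass, among them SLC7A11, the cystine carrier, with 10.37 at 3 pM EE and 10.11 in vehicle.

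The last group holds RHOBTB1, EPB41L2 and CAPS. RHOBTB1 had log2 levels of 6.32, 6.54 and 6.57 (lowest, median and highest) at 3 pM EE and of 5.98, 6.09 and 6.20 in vehicle, with no overlap. The difference was 0.39 ± 0.06 (SE, limma adjusted p = 4.43e-05). EPB41L2, a protein 4.1 family member that links the membrane to the actin skeleton, had levels of 8.99, 9.10 and 9.18 at 3 pM EE and of 8.76, 8.84 and 8.94 in vehicle, also with no overlap. Its difference of 0.25 ± 0.05 was the smallest of the 17 (SE, limma adjusted p = 0.00474).

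CAPS encodes calcyphosine, a calcium-binding protein found in ciliated and other epithelia. Its log2 level was 8.41, 8.74 and 8.93 (lowest, median and highest) at 3 pM EE and 8.01, 8.25 and 8.59 in vehicle. The groups overlapped with and without the 2 arrays with 3′ bias. The difference was 0.42 ± 0.08 (SE, limma adjusted p = 0.008), and it was lost without vehicle replicate 1 (adjusted p = 0.058) and without 3 pM replicate 6. Of 9 ciliated cell markers with a probe set 6 were below the floor on all 12 arrays, and FOXJ1, the regulator of cilia, averaged 3.97 at 3 pM EE and 4.14 in vehicle. Whether ciliated cells had a part in the rise of CAPS was not tested.

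Across the 17 genes, the groups of 10 did not overlap (ALPG, ANO1, DEPTOR, DHRS3, EPB41L2, PGR, RHOBTB1, SLCO2A1, TGFA and THBS1). Over all genes tested, 13 were higher at 3 pM with no overlap (0.117%) and 6 were lower with no overlap (0.0542%). The calls of OLFM1, PGR, ALPG, DHRS3, SLCO2A1, THBS1, TGFA, DEPTOR, RHOBTB1, SLC6A6 and EPB41L2, 11 genes, held in all 12 fits that each left out 1 array, and these fits called between 14 and 18 genes.

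**Figure D2:**
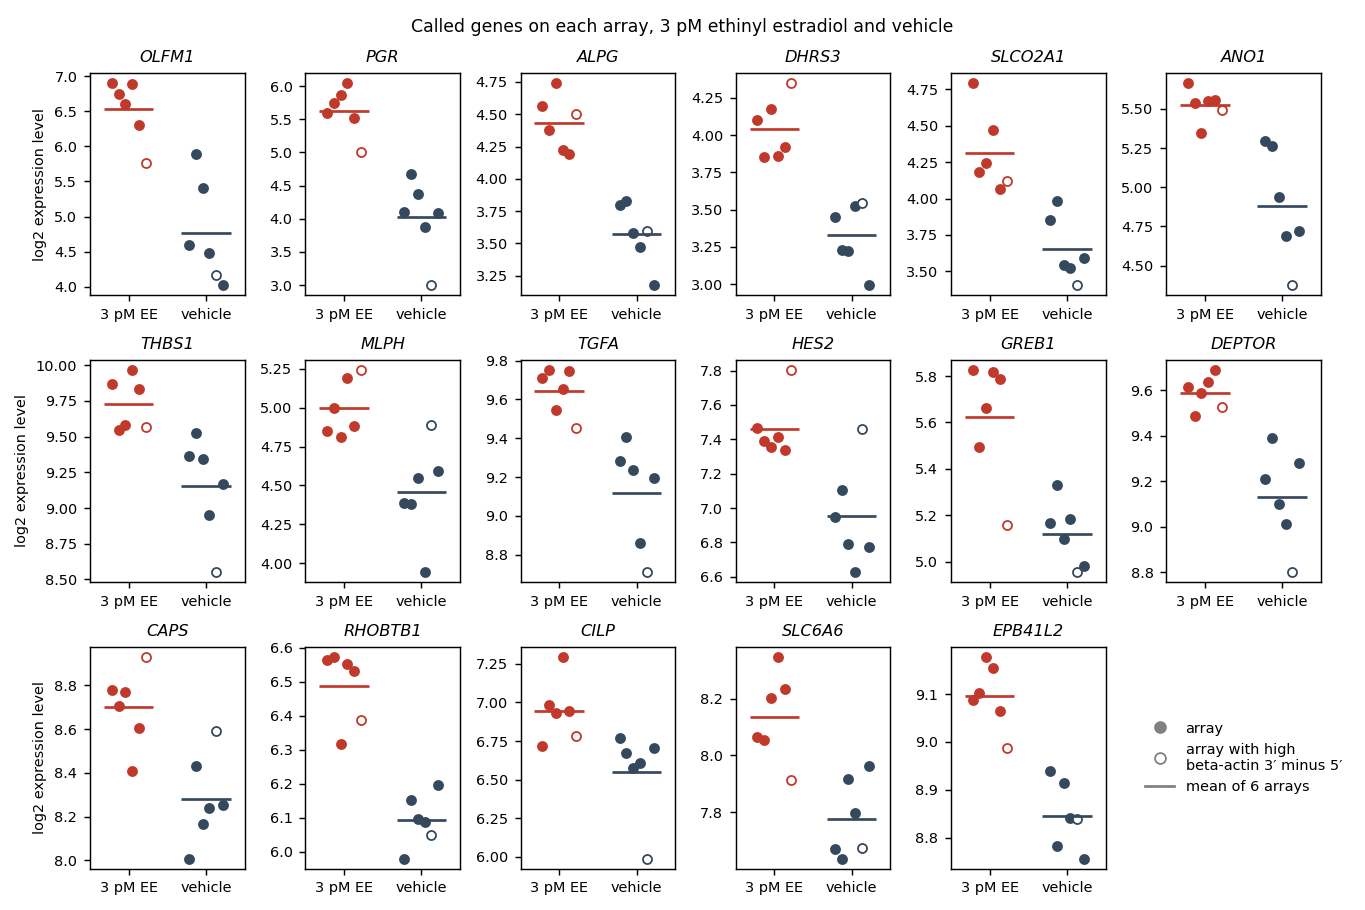
The log2 level of the 17 called genes on each array, with 3 pM EE at the left and vehicle at the right of each panel, 6 arrays a group. Lines are group means, and open circles are 3 pM replicate 6 and vehicle replicate 5. In 10 panels every point at 3 pM EE lies above every vehicle point, and in OLFM1, SLC6A6 and GREB1 the overlap comes from the open circle at 3 pM.

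The array carries 44 probe sets for the 17 genes, and the one with the highest mean stood for its gene. Of the other 27, 20 were higher at 3 pM EE. In 6 genes (OLFM1, PGR, THBS1, TGFA, CAPS and EPB41L2), 11 of the 27 exceeded the floor on enough arrays of the series to enter. All 11 were higher at 3 pM EE. These genes were chosen as higher on the same arrays, and the filter also took in the arrays of higher doses. What share of all entering probe sets was higher at 3 pM EE was not counted. The 11 are therefore no independent evidence for the calls. The second probe set of OLFM1 averaged 5.13 ± 0.28 at 3 pM EE and 3.50 ± 0.62 in vehicle (SD, n = 6 each). The second of PGR averaged 2.31 at 3 pM EE and 2.05 in vehicle, below the floor, so the call of PGR rests on 1 probe set. The calls of the genes outside these 6 also rest on 1 probe set each. Among the others that did not enter, that of ALPG was lower at 3 pM EE, with 2.50 against 2.85 in vehicle, both below the floor. With the first probe set by identifier in place of the brightest, 13 genes were called and PGR (difference 0.25, adjusted p = 0.885), TGFA, THBS1 and EPB41L2 were not.

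Without these 2 arrays 18 genes were higher and 0 lower, 0.163% of those tested. Of the 17 genes, 16 remained. The groups of 15 did not overlap, which are the 10 above and OLFM1, MLPH, HES2, GREB1 and SLC6A6. Over all genes tested, 44 were higher with no overlap (0.397%) and 34 were lower with no overlap (0.307%). ANO1 was lost, with a difference of 0.55 ± 0.13 (SE, adjusted p = 0.0933), although its groups still did not overlap. PGR had a difference of 1.53 ± 0.20 (adjusted p = 1.06e-05) and OLFM1 of 1.81 ± 0.27 (adjusted p = 0.000107). The differences of THBS1 (0.49), TGFA (0.49), DEPTOR (0.40) and CILP (0.31) were smaller than with all arrays, and those of GREB1 (0.57), HES2 (0.54) and MLPH (0.57) were larger.

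The 2 genes gained were ANPEP and GALNT4. ANPEP, aminopeptidase N, had a difference of 0.72 ± 0.16 (SE, limma adjusted p = 0.0260) without the 2 arrays and of 0.62 ± 0.16 (adjusted p = 0.235) with them. GALNT4, an enzyme that starts mucin-type O-glycans, had a difference of 0.39 ± 0.07 (adjusted p = 0.00149) without and 0.29 ± 0.08 (adjusted p = 0.235) with them. These were also the 2 genes next to the threshold with all arrays. The gene with the lowest adjusted p among those lower at 3 pM was S100A10, a partner of annexin A2, with a difference of −0.16 ± 0.04 (adjusted p = 0.270) with all arrays and an adjusted p of 0.648 without the 2.

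**Figure D3:**
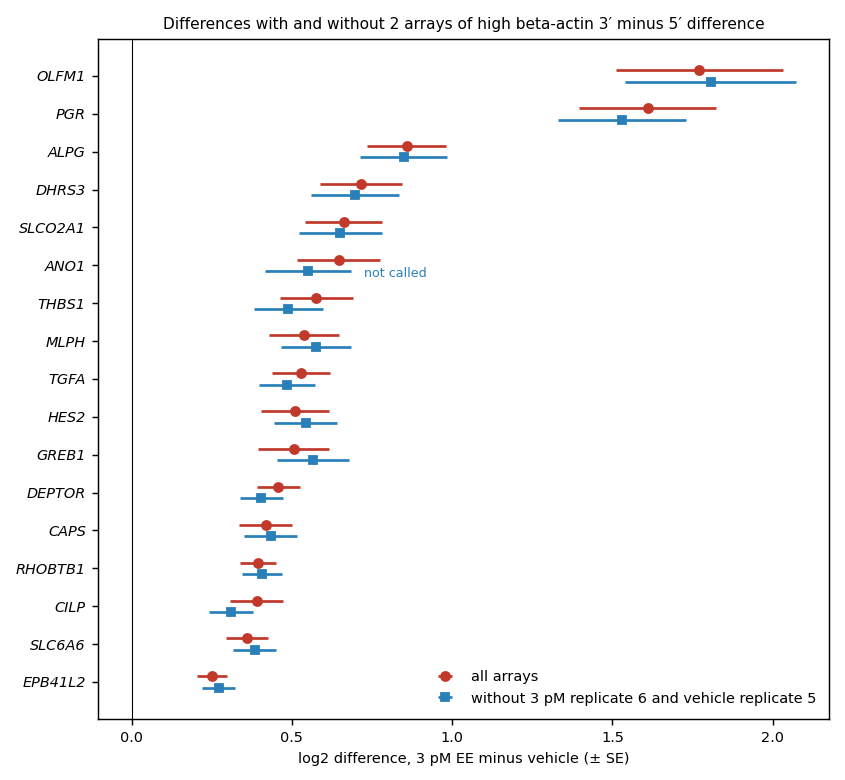
Log2 difference, 3 pM EE minus vehicle, with its standard error, of the 17 genes with all arrays (red circles) and without 3 pM replicate 6 and vehicle replicate 5 (blue squares). All points lie above 0 in both, and ANO1 is the gene that no longer passes the test without the 2 arrays.

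The same 6 arrays at 3 pM EE were set against the neighbouring doses. Against 1 pM EE, limma called 1 gene, ALPG, 0.00903% of those tested. ALPG averaged 4.43 ± 0.21 at 3 pM EE and 3.77 ± 0.17 at 1 pM EE (SD, n = 6 each, adjusted p = 0.0229), and it passed the floor on 1 of the 6 arrays at 1 pM. The call was lost without 3 pM replicate 1, 2 or 3, and 2 genes were called without 3 pM replicate 6. The largest gaps were those of OLFM1, with 6.53 at 3 pM EE and 5.50 at 1 pM EE (difference 1.03 ± 0.26, SE, adjusted p = 0.462), and PGR, with 5.63 at 3 pM EE and 4.62 at 1 pM EE (difference 1.01 ± 0.21, adjusted p = 0.109). Arrays of 3 and 1 pM with the same replicate number deviated together, and with the number as a block in a fit of these groups 4 genes were called: OLFM1 (1.03 ± 0.10, SE, adjusted p = 0.00195), PGR (1.01 ± 0.13, adjusted p = 0.0143), HES2 (0.38 ± 0.05, adjusted p = 0.0261) and CAPS (0.32 ± 0.05, adjusted p = 0.0261). These 4 were among the 17. THBS1 had the smallest gap of the 17, with 9.73 ± 0.18 at 3 pM EE and 9.64 ± 0.21 at 1 pM EE (SD, n = 6 each).

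From 3 to 10 pM EE, 16 genes were higher at 10 pM (0.144%) and 1 was lower. These comparisons share the 3 pM arrays with the one against vehicle. Of the 17 genes 12 passed, among them PGR, which averaged 6.94 at 10 pM EE and 5.63 at 3 pM EE (difference 1.31 ± 0.21, SE, adjusted p = 0.000299), and ALPG, with 5.44 at 10 pM EE and 4.43 at 3 pM EE (difference 1.01 ± 0.12, adjusted p = 1.67e-06). The 5 that did not pass this step were THBS1, TGFA, HES2, DEPTOR and CILP, with differences between 0.26 (DEPTOR) and 0.40 (HES2). Each of the 5 was higher at 10 pM in all 6 pairs of arrays with the same replicate number. The share of all genes higher in all 6 pairs was not counted, so this says nothing particular about the 5. The replicate numbers also pair the arrays of 10 and 3 pM. With the number as a block in a limma fit of these groups 18 genes were called, 11 of the 17 among them. DEPTOR passed (adjusted p = 0.0378), and RHOBTB1 (adjusted p = 0.0589) and SLC6A6 (adjusted p = 0.0862) no longer did. THBS1, TGFA, HES2 and CILP did not pass (adjusted p between 0.0568 and 0.155). Higher at 10 pM and not called at 3 pM were NPPC, which encodes C-type natriuretic peptide (0.82 ± 0.18), EGR3, an early-response transcription factor (0.82 ± 0.17), G0S2, an inhibitor of fat cell lipase (0.61 ± 0.12), and NRIP1 (0.46 ± 0.11). The 1 lower gene was JAG1, with 9.57 ± 0.10 at 10 pM EE and 9.80 ± 0.07 at 3 pM EE (SD, n = 6 each; difference −0.23 ± 0.05, SE, adjusted p = 0.0240). With the replicate block the calls of NPPC (adjusted p = 0.117), EGR3 (adjusted p = 0.177) and JAG1 (adjusted p = 0.0713) were lost, and 2 other genes were lower at 10 pM, CCN1 and COL1A1.

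Set against the 13 arrays of 0.1 and 0.3 pM EE in place of vehicle, the arrays at 3 pM EE gave 18 higher genes (0.163%) and 0 lower. Of the 17 genes 16 passed, with CILP left out (difference 0.24 ± 0.07, SE, adjusted p = 0.527). ANPEP (0.75 ± 0.14, adjusted p = 0.00171) and GALNT4 (0.40 ± 0.06, adjusted p = 0.000136) made up the rest. PGR had a difference of 1.45 ± 0.18 (adjusted p = 2e-06) and OLFM1 of 1.70 ± 0.22 (adjusted p = 3.46e-06). The 3 pM arrays enter both this comparison and the one with vehicle.

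The levels of OLFM1 and PGR over the 8 groups are given in order of dose. OLFM1 averaged 4.76 ± 0.73 in vehicle, 4.70 ± 0.65 at 0.1 pM, 4.97 ± 0.50 at 0.3 pM, 5.50 ± 0.51 at 1 pM, 6.53 ± 0.44 at 3 pM, 7.67 ± 0.25 at 10 pM, 8.92 ± 0.15 at 100 pM and 9.06 ± 0.23 at 1000 pM (SD, n = 7 at 0.3 pM and 6 elsewhere). PGR averaged 4.02 ± 0.57 in vehicle, 4.14 ± 0.41 at 0.1 pM, 4.23 ± 0.44 at 0.3 pM, 4.62 ± 0.52 at 1 pM, 5.63 ± 0.36 at 3 pM, 6.94 ± 0.24 at 10 pM, 8.83 ± 0.06 at 100 pM and 9.15 ± 0.19 at 1000 pM. In both genes the means of vehicle, 0.1 and 0.3 pM lay within 1 SD of each other.

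The arrays of the other doses were not in the contrast that chose the 17 genes, but they shared in its estimate of the spread and in the filter on low levels. DHRS3 entered the test only through arrays at 10 pM and above, and it is left out here. The other 16 are among the 10733 genes that exceeded the floor on at least 6 of the 12 arrays at 3 pM EE and vehicle. They are set against those. ALPG and SLCO2A1 passed this filter only through the 3 pM group, with 6 of 6 arrays above the floor there and 0 of 6 in vehicle. The counts that follow include both. Against the mean of 0.1 and 0.3 pM, limma called 0 of the 16 at 1 pM, where 0 of the 10733 genes passed (0%). It called all 16 higher at 10 pM, where 56 of the 10733 were higher (0.522%) and 34 lower (0.317%), and all 16 higher at 1000 pM, where 331 were higher (3.08%) and 553 lower (5.15%). At 1 pM the differences of the 16 genes were between 0.06 and 0.67 with a median of 0.20, against −0.01 over the 10733. At 10 pM they were between 0.58 and 2.84 with a median of 0.90, and at 1000 pM between 1.02 and 4.97 with a median of 1.73, against −0.01 at both doses over the 10733.

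**Figure D4:**
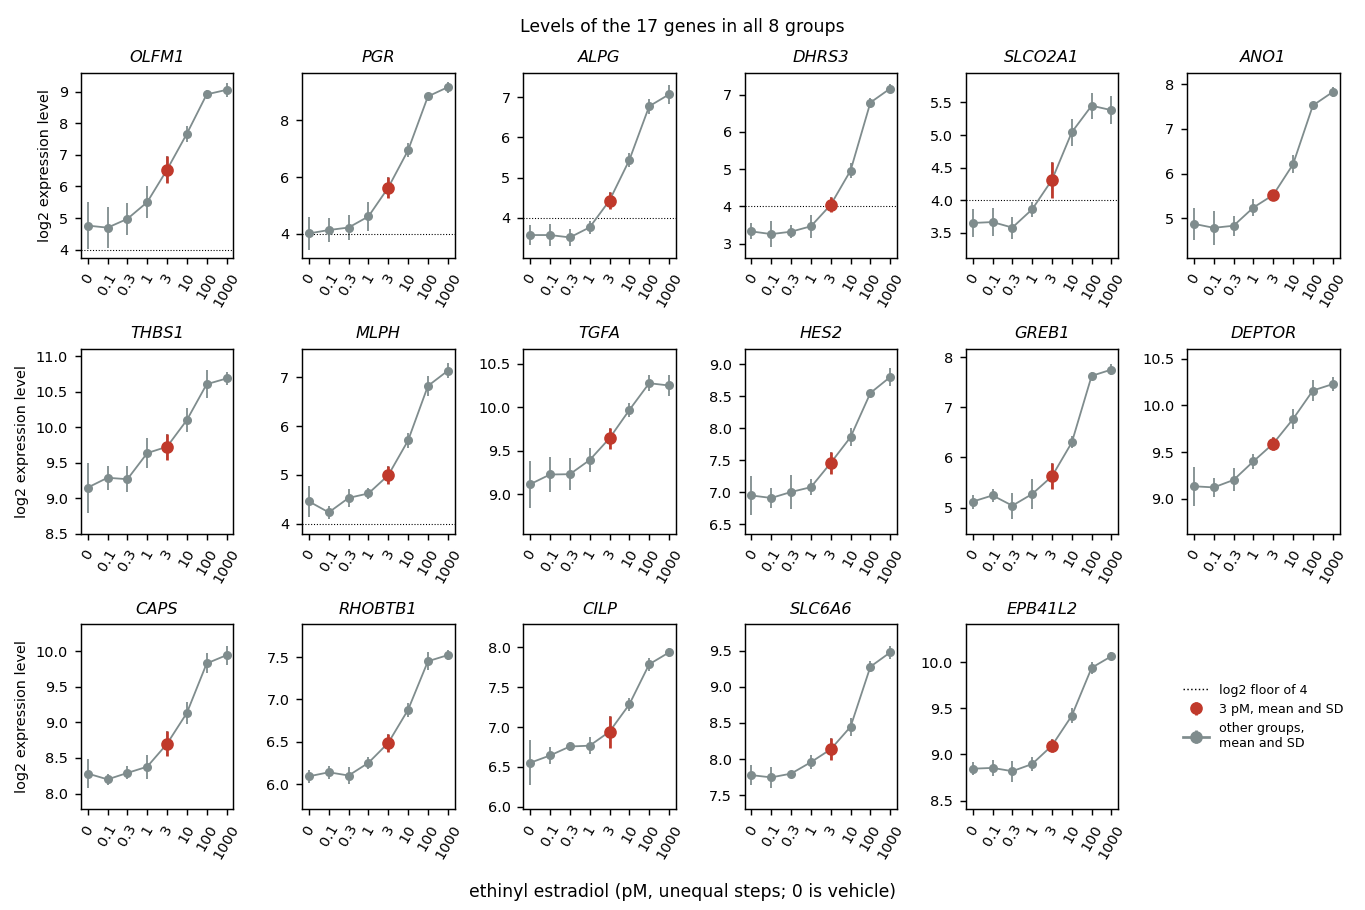
Mean log2 level with its SD of the 17 genes in all 8 groups, ordered by ethinyl estradiol in pM (unequal steps, 0 is vehicle), with 3 pM in red and the log2 floor of 4 dotted. The genes were chosen for the distance between their 3 pM and vehicle points. The means of ALPG, DHRS3 and SLCO2A1 are below the floor up to 1 pM.

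The receptor itself did not pass. ESR1, which encodes estrogen receptor alpha, averaged 8.31 ± 0.08 at 3 pM EE and 8.24 ± 0.08 in vehicle (SD, n = 6 each; difference 0.07 ± 0.05, SE, 95% interval −0.03 to 0.16, adjusted p = 0.910). ESR2, the beta receptor, was below the floor on all of its probe sets. Of 15 measured receptors and coregulators 0 passed, against 0.153% of all genes tested, so this count says nothing particular about them. FOXA1, a pioneer factor of the receptor, averaged 5.78 ± 0.19 at 3 pM EE and 6.09 ± 0.24 in vehicle (SD, n = 6 each, limma adjusted p = 0.910).

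Of the 46 gene lists 44 had measured genes, 665 different genes in all, and 13 lists held a call. These 665 genes held 14 of the 17 called genes, against 0.153% of all genes tested, and since the lists were drawn up with earlier results known this count is no evidence about them. RHOBTB1, CILP and EPB41L2 were on no list. Of 29 mitosis genes 0 passed, with a median difference of 0.03, and MKI67, a marker of cycling cells, averaged 9.32 at 3 pM EE and 9.23 in vehicle. Of 38 DNA replication genes and 23 cyclins and kinases of the first cell cycle phase 0 passed, with medians of −0.00 and −0.01, and CCND2, a D-type cyclin, averaged 7.69 at 3 pM EE and 7.49 in vehicle. Of 22 p53 targets, 17 cholesterol synthesis genes, 24 genes of the unfolded protein response, 29 of hypoxia and glycolysis and 20 heat shock genes 0 passed. Over all genes tested 0.153% passed, so a count of 0, here or elsewhere, says nothing particular about a list of this size. The same holds for the lists named beside a called gene, which were drawn up with earlier results known.

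Of 21 contractile and YAP or SRF target genes 0 passed, and 19 of them had a difference at or below 0 with a median of −0.16, against −0.00 over all genes. Over all 11075 genes tested 5430 had a difference above 0. The list was drawn up with earlier results of these data known, so its counts are no evidence about it. TAGLN, a smooth muscle actin-binding protein, averaged 7.91 at 3 pM EE and 8.17 in vehicle, and MYL9, a myosin light chain, averaged 6.40 at 3 pM EE and 6.75 in vehicle. Without the 2 arrays with 3′ bias the median of this list was −0.17. Of 16 genes of the receptive and secretory endometrium 0 passed, and SCGB2A1, a secretoglobin, averaged 5.81 at 3 pM EE and 5.47 in vehicle.

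The mean level of 14 endometrial epithelial markers was 8.15 to 8.31 on the arrays at 3 pM EE and also on those of vehicle, with PAX2 alone below the floor, and EPCAM averaged 11.44 at 3 pM EE and 11.36 in vehicle. All 8 endothelial and all 9 immune markers with a probe set were below the floor on all 12 arrays. Of 10 stromal markers 6 were below it, DCN, LUM, PDGFRA, PDGFRB, FAP and THY1. The other 4 were matrix genes above the floor: COL1A1 averaged 8.56 at 3 pM EE and 8.79 in vehicle, COL1A2 averaged 7.80 at 3 pM EE and 7.45 in vehicle, FBN1 averaged 7.00 at 3 pM EE and 7.14 in vehicle, and COL3A1 averaged 5.16 at 3 pM EE and 5.18 in vehicle. None of these 4 passed the test, and the mean level of the list was 4.29 to 4.50 on the arrays at 3 pM EE and 4.29 to 4.46 in vehicle.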

How the data were processed

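RNA of each sample was hybridised to 1 Affymetrix HT HG-U133 Plus PM array. The deposited log2 levels were made by the authors with GCRMA and Partek, per the submitters' processing notes, which give no version. GCRMA draws dim signals toward a floor, so changes of dim genes are uncertain. The table held 54715 probe sets, and the platform annotation gave 1 gene symbol for 40920 of them, more than 1 for 864 and no symbol for 12931. A probe set entered if its log2 level exceeded 4 on at least 6 of the 49 arrays, and each of the 11075 genes was represented by its entering probe set of highest mean. A limma 3.58.1 model (R 4.3.3) took a mean for each of the 8 groups, with an intensity trend and Benjamini-Hochberg adjustment within each contrast. A gene is called at an adjusted p under 0.05. RNA quality was compared with a two-sided exact permutation test of 6 arrays against 6.

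The members, the gene lists and the alternatives were chosen with earlier results of these data known. Named genes were the 14 largest called rises and falls, the called members of the 46 lists, the 3 largest called changes of each other comparison, and ESR1, ESR2, PGR, GREB1, OLFM1, NRIP1, ALPP and ALPG. CILP, EPB41L2, GALNT4, S100A10 and the uncalled list members were named after their values were seen, as were NPPC, EGR3, G0S2, CCN1 and COL1A1. The calculations were tested on simulated data. Alternatives changed the arrays, filter, normalization, variance prior, probe sets and threshold, and leaving out 2 arrays was one of them. Replicate numbers were taken to pair the arrays of 2 groups where the deviations from the group means of all 6 pairs correlated over 0.1. This held for 3 and 1 pM (0.206 to 0.638) and for 10 and 3 pM (0.220 to 0.520). It did not hold for 3 pM and vehicle (−0.575 to 0.350, with 3 of 6 over 0.1). That check included the 2 arrays with 3′ bias and was not repeated without them. These 2 arrays lay farthest from their group means and carry different replicate numbers. The check therefore cannot decide whether the vehicle arrays pair with those of 3 pM. No label names a batch, so the values alone give the pairing of 3 with 1 pM and of 10 with 3 pM. Promoter sequences are RefSeq's for GRCh38.p14. No column of the table was left unused.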

Additional observations from a re-analysis of the deposited data

Results flagged for a closer look

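In 44 groups of 6 arrays (20 genes and the 2 control RNAs), 8 values lay far from the other 5 of their group, where chance gives about 1 in 20 groups. All 8 came from 3 pM replicate 6 or vehicle replicate 5. The flagged values of beta-actin and GAPDH are those by which these arrays were set apart, so their flags are no new evidence. Genes on the same array are not independent, so the count cannot be set against the rate of 1 in 20. On 3 pM replicate 6, HES2 was at 7.80 against 7.34 to 7.47 on the other arrays at 3 pM EE, and NRIP1 was at 7.28 against 7.75 to 7.91. On vehicle replicate 5, CILP was at 5.99 against 6.57 to 6.77 on the other vehicle arrays, and ESR1 was at 8.09 against 8.25 to 8.32. The 3′ minus 5′ difference of beta-actin was 2.75 on 3 pM replicate 6 (0.92 to 1.45 on the others of its group) and 4.62 on vehicle replicate 5 (0.85 to 2.06). That of GAPDH was 0.50 on 3 pM replicate 6 (−0.15 to −0.08) and 1.79 on vehicle replicate 5 (−0.10 to 0.19).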

How the results depend on the processing

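The call of rises at 3 pM EE depended on the arrays that set the spread. With only the 12 arrays in the fit, 0 genes, 0 named genes and 0 lists with a call were found, and likewise 0, 0 and 0 with the replicate number as a block (57 genes at an unadjusted p under 0.05). With these groups alone and without 3 pM replicate 6 and vehicle replicate 5, 9 genes were called, 8 of the 17 among them, in 6 lists. Adding a fold of at least 1.5 left 6 genes in 6 lists. Over the other alternatives, between 13 and 20 genes were called and 0 were lower. Leaving out 1 array at a time gave 14 to 18 genes, 14 to 17 of the 17 genes and 10 to 13 lists. Against 1 pM EE, 3 genes were called without the 4 arrays of the series with 3′ bias, 0 in a fit of these groups alone, 4 with the replicate block and 0 to 2 when 1 array at 3 pM was left out. From 3 to 10 pM EE, 11 genes were called in a fit of these groups alone, 18 with the replicate block and 12 to 15 when 1 array at 3 pM was left out. Against 0.1 and 0.3 pM EE, 12 (replicate block) to 26 genes (without the 4 arrays) were called. For single genes, 560 alternative values stayed on the same side of the threshold, 72 lost the call, 11 gained it and 0 were reversed. A change of sign was counted as reversed only where the gene was called in the main fit or the alternative. Values of uncalled genes may therefore have changed sign among the 560. DHRS3 could not be given a value where the filter was set on the 12 arrays. Beyond the fits with fewer arrays, the cause of these changes was not tested. Levels near the floor limit what can be said of ALPG, DHRS3 and SLCO2A1.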

Other observations

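Of 7 measured keratin genes 0 passed and 1 had a difference above 0, with a median of −0.08. KRT80, an epithelial keratin, averaged 4.96 at 3 pM EE and 5.39 in vehicle (limma adjusted p = 0.910). Over all 11075 genes tested 17 passed (0.153%) and 5430 had a difference above 0. The lists named here were drawn up with earlier results of these data known, so their counts are no evidence about them. Of 14 measured feedback regulators and targets of ERK signalling 0 passed, with a median of 0.09 with all arrays and −0.02 without the 2 arrays with 3′ bias. DUSP5, a phosphatase of that list, averaged 3.52 ± 0.21 at 3 pM EE and 4.00 ± 0.31 in vehicle (SD, n = 6 each, limma adjusted p = 0.910). Of 15 fatty acid synthesis genes 0 passed, with a median of −0.09 with all arrays and 0.00 without the 2, and FASN, the synthase itself, averaged 6.27 at 3 pM EE and 6.43 in vehicle.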
